A study of Mus musculus with 2 samples.

Results

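The TNF superfamily genes on the array comprised 35 of the 22180 genes measured, 13 ligands and 22 receptors. They were taken by symbol, as every gene with a numbered Tnfsf or Tnfrsf name together with Tnf, Lta, Ltb, Ltbr, Fas and Fasl, measured by a probe set that names 1 gene only. Each of the 35 had 1 such probe set, and for all 35 the Entrez ID led to the same symbol in the RefSeq gene table. The ligand genes Tnfsf12 and Tnfsf13 share a probe set with a readthrough gene and were therefore no members. The samples were spleen cells of Fx-/- mice, which cannot make GDP-fucose from mannose because Fx (now Gfus) is lost, on 2 Affymetrix whole-transcript arrays. The on-fucose array held cells of fucose-treated Fx-/- mice and the off-fucose array held cells of Fx-/- mice without fucose treatment. The deletion is thus shared by both groups, no wild-type array is used, and the labels used here give neither age nor strain nor the number of mice pooled. The cells were labelled cDC1, the conventional type 1 dendritic cells, after bead depletion of B220 and CD11b cells and positive selection on CD11c.

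TNF superfamily ligands are mostly trimeric proteins of the cell surface that can be shed, and they cluster receptors whose outer part is built of cysteine-rich repeats. Receptors with a death domain recruit adaptors such as Tradd and Fadd and can start apoptosis, while most others bind TRAF proteins and switch on NF-kappaB. In the spleen the family carries co-stimulation between dendritic cells and T cells, survival of B cells and the upkeep of lymphoid tissue.

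With 1 array per group no difference below has a replicate check, so no test and no SD across replicates can be given. Values are log2 of the RMA intensity deposited by the authors, and differences are given as the off-fucose value less the on-fucose value. Since probe sets respond differently, a value is set against the same probe set on the other array and not against another gene. The expression filter kept the 11090 genes whose mean log2 intensity over both arrays reached 2.88, the median over all genes. As a measure of scatter, a robust SD, taken over the differences of genes with similar intensity, is given for some genes. For the members it ran from 0.17 to 0.36, and it mixes technical with biological differences. Markers showed that the arrays differ in more than fucose. Xist, transcribed from the inactive X chromosome, had 8.26 on fucose and 2.82 off fucose, while the Y-linked gene Uty had 2.14 and 5.26, so fucose supply and sex of the mice cannot be told apart. The 9 T cell markers measured all passed the filter and were lower off fucose, with Cd3e of the T cell receptor at 10.97 and 10.55. All 10 measured cDC1 genes passed it too, Irf8 at 4.18 and 6.68 and Naaa at 5.97 and 8.36 among them, with the chemokine receptor gene Xcr1 close to the filter at 2.90 and 3.43. As T cell markers had signal in cells labelled cDC1, the cells are called splenocytes here. In such mixed cells, fewer cells of a type and less RNA per cell cannot be told apart.

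Most TNF superfamily genes with signal above the filter had lower values off fucose, and each of these was within 2-fold. Of the 35 members, 22 passed the filter, and 18 of these were lower off fucose and 4 higher, against 56.5% lower and 42.2% higher among the 11090 genes. The median difference of the 22 was -0.30, beside -0.05 for those 11090 genes. Of all 35 members 23 were lower, against 50.0% of the 22180 genes. When the median difference of the T cell markers, -0.23, was subtracted from every gene, here called T cell centring, 14 of the 35 were lower and 12 of the 22 remained below 0 with a median of -0.07 for the 22, against 25.9% of the 11090 genes, whose median that centring shifted to 0.18. Only Tnfrsf21, which encodes death receptor 6, was at least 2-fold higher off fucose, beside 2.37% of genes past the filter, and no member was at least 2-fold lower, beside 0.514%. At 1.5-fold, 5 members were lower, Tnf, Tnfrsf25, Fas, Tnfsf8 and Tnfrsf9, beside 4.27% of genes past the filter, and Tnfrsf21 was the only one higher, beside 5.77%. With T cell centring, Tnf and Tnfrsf25 remained at least 1.5-fold lower, beside 1.06% of genes past the filter, and Tnfrsf21, Ltbr and Tnfsf14, the last below the filter, were at least 1.5-fold higher, beside 11.2%. The other 13 members did not pass the filter, and their differences ran from -0.45 to 0.50 with a median of 0.00. The member nearest to the filter of 2.881 from above was Tnfrsf19, with a mean of 2.985, and those nearest from below were Lta and Tnfrsf8, at 2.875 and 2.866.

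**Figure D1:**
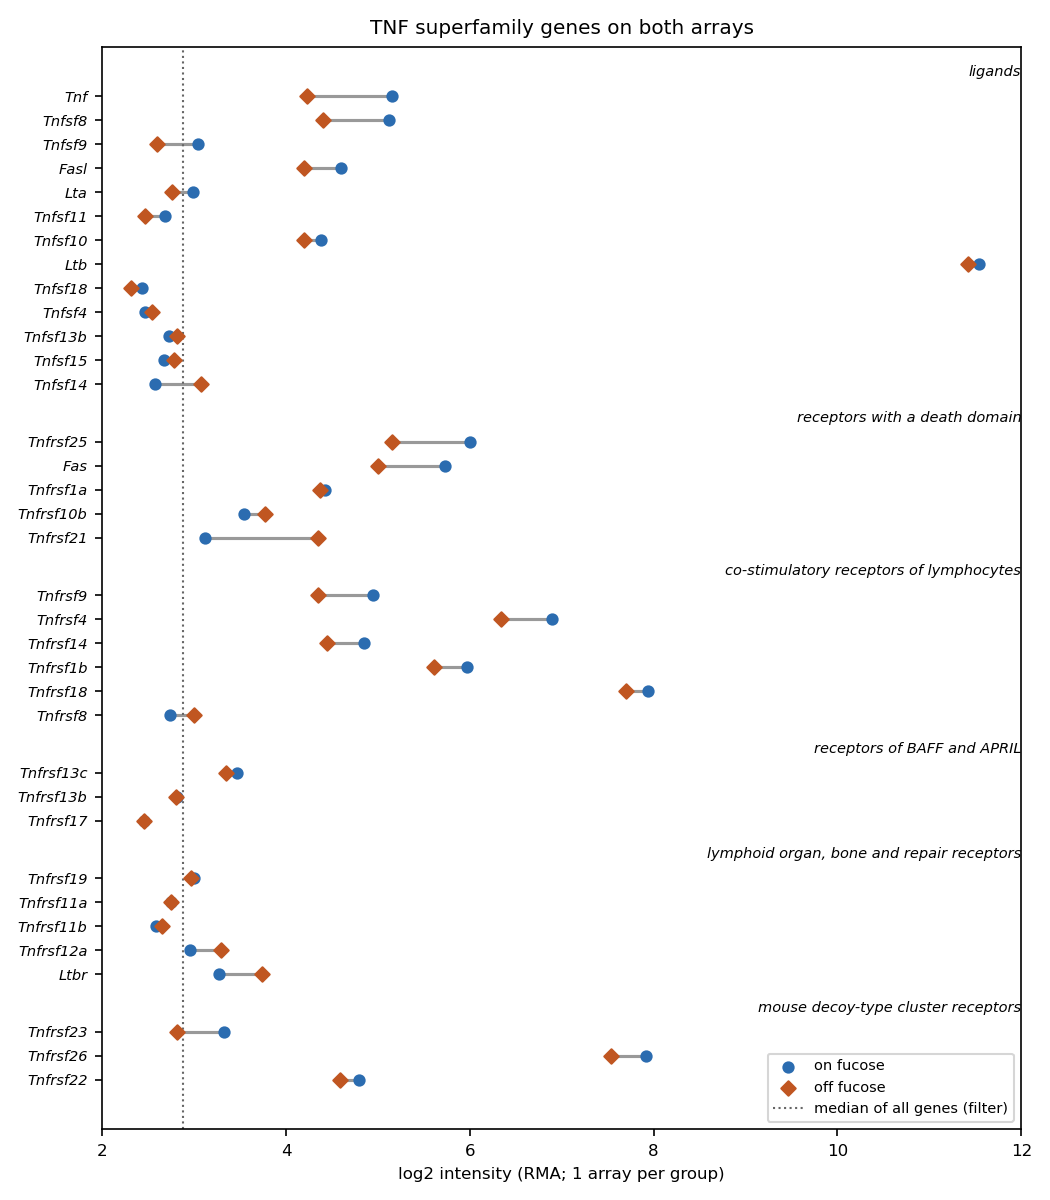
Log2 intensity (horizontal axis) of the 35 TNF superfamily genes on the on-fucose array (circles) and the off-fucose array (diamonds), grouped by role, with 1 array per group and no error bars; the dotted line is the expression filter at 2.88. All 5 ligands past the filter lie further left off fucose as deposited, Ltb and Tnfsf10 on the other side with T cell centring, and Tnfrsf21 has the widest gap, from 3.12 to 4.35.

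Of the 11 members past the filter with the higher mean intensity, from 4.65 to 11.48, all were lower off fucose as deposited, with differences from -0.92 in Tnf to -0.12 in Ltb and a median of -0.55. Among all 5734 genes of at least that mean, 61.4% were lower and the median difference was -0.08. With T cell centring Ltb and Tnfrsf22 of these 11 turned to 0.10 and 0.02. Among the other 11, from 2.98 to 4.65, 7 were lower and the median was -0.05, a value that the same centring turned positive.

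**Figure D2:**
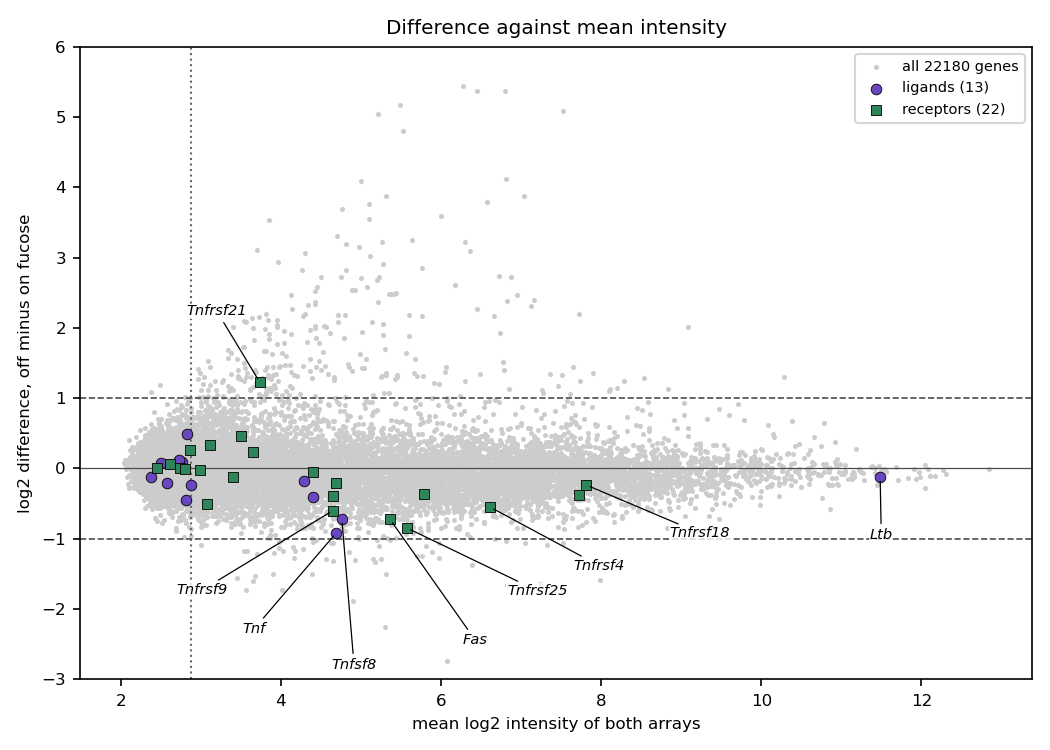
Log2 difference, off minus on fucose (vertical axis), against mean log2 intensity of both arrays (horizontal axis) for 22180 genes (grey; 1 gene lies outside the axes), with 13 ligands as circles and 22 receptors as squares. Dashed lines mark 2-fold and the dotted line the filter; Tnfrsf21 is the only member beyond 2-fold, and Tnf, at -0.92, lies just inside the lower line.

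Among the ligands, Tnf had the largest difference and Ltb hardly differed. Tnf encodes tumour necrosis factor, the inflammatory cytokine that acts through Tnfrsf1a and Tnfrsf1b. It had 5.15 on the on-fucose array and 4.23 on the other, which is 1.89-fold lower off fucose, where genes of similar intensity had a robust SD of 0.34. Tnfsf8, which encodes the ligand of CD30 on activated T cells, had 5.12 and 4.40, which is 1.65-fold lower with a robust SD of 0.32. Fasl, the death-inducing ligand of cytotoxic lymphocytes, had 4.60 and 4.19, a difference of -0.41. These 3 genes stayed lower under every scaling run here, at -0.69, -0.50 and -0.18 with T cell centring. That centring subtracts -0.23 from every gene, so differences as wide as theirs could not change sign by it. Tnfsf10, which encodes TRAIL, had 4.38 and 4.20, and Ltb, the membrane anchor of the lymphotoxin trimer made by lymphocytes, had 11.54 and 11.42. Both were lower by less than their robust SD of 0.34 and 0.20, and both turned positive with T cell centring, to 0.04 and 0.10.

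The other 8 ligand genes lay below the filter, where values are near the low end of the arrays and differences are understated. Tnfsf14, which encodes LIGHT, a ligand of HVEM and of the lymphotoxin beta receptor, had 2.58 and 3.07, the largest positive difference among ligands at 0.50. Tnfsf9, the ligand of the receptor encoded by Tnfrsf9, went the other way with 3.04 and 2.59. Lta, the soluble lymphotoxin subunit, had 2.99 and 2.76. Neither Tnfsf9 nor Lta had an off-fucose value above 2.88. Tnfsf13b, which encodes the B cell survival factor BAFF, had 2.72 and 2.81. Tnfsf4, which encodes the OX40 ligand of antigen-presenting cells, had 2.46 and 2.54, and Tnfsf18, the GITR ligand, had 2.43 and 2.31. Tnfsf11, which encodes RANKL, the driver of osteoclasts and lymph node formation, had 2.68 and 2.47, and Tnfsf15, the ligand of death receptor 3, had 2.67 and 2.79. All 5 of these stayed below the filter on both arrays, so these ligand genes gave little signal in either sample.

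The death domain receptors held both the only member at least 2-fold higher and the receptor with the largest lower value. Tnfrsf21 encodes death receptor 6, which is found in many tissues and restrains T helper and B cell responses. It had 3.12 on fucose and 4.35 off fucose, which is 2.35-fold higher, with a robust SD of 0.36 among similar genes. This difference ran from 1.23 to 1.46 over the scalings. Tnfrsf25, which encodes death receptor 3, the receptor of T cells for the Tnfsf15 product, had 6.0 and 5.15, which is 1.80-fold lower with a robust SD of 0.30. Fas, the death receptor for Fasl, had 5.73 and 5.0, which is 1.65-fold lower with a robust SD of 0.32. Both stayed lower with T cell centring, at -0.62 and -0.50. Tnfrsf10b, the mouse death receptor for TRAIL, had 3.54 and 3.77, a difference of 0.23. Tnfrsf1a, the widely expressed TNF receptor, had 4.42 and 4.37, and its difference of -0.05 turned positive with loess, quantile normalisation, median centring and T cell centring. The 5 death domain genes thus differed in both directions, and all but Tnfrsf1a kept their sign under every scaling run. Median centring and T cell centring could not have changed those signs.

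To show the regulatory sequence of the members at least 1.5-fold apart, the promoters of Tnf, Fas, Tnfrsf9 and Tnfrsf21 are given as RefSeq places them in GRCm38.p6. Each runs 5′ to 3′ on the gene's strand and ends at the base before the first annotated base of the gene. Tnf lies at chr17:35202008-35202257 on the minus strand, Fas at chr19:34290409-34290646, Tnfrsf9 at chr4:150919905-150920154 and Tnfrsf21 at chr17:43016305-43016554, all 3 on the plus strand. The Fas window is 238 bases long, since the rest of its 250 lies within the annotated gene, and the others are whole. Capitals mark matches to the motifs searched.
Tnf: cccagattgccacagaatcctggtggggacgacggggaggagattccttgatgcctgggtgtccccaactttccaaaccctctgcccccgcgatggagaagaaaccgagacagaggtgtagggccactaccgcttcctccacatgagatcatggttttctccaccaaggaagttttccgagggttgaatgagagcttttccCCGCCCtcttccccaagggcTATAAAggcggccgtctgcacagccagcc
Fas: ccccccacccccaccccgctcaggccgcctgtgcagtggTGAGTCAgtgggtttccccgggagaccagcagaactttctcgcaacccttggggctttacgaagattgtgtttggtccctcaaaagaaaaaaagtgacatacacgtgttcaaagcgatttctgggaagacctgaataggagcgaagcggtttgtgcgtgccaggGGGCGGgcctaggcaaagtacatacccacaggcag
Tnfrsf9: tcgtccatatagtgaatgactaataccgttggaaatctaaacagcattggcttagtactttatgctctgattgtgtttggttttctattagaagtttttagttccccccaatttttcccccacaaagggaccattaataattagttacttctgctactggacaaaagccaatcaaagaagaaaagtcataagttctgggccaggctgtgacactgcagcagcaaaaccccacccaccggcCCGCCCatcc
Tnfrsf21: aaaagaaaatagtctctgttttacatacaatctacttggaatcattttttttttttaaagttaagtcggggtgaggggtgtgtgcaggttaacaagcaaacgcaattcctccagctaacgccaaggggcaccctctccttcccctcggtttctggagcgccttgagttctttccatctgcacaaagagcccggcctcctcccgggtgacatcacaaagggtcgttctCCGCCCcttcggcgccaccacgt
Tnfsf8 and Tnfrsf25 are not printed because their windows overlap the annotated span of the gene itself. The 6 motifs, searched on both strands in the 250 bases that the table gives before each start, were the NF-kappaB motif, AP-1 (TGANTCA), RUNX (TGTGGT), the GC box (GGGCGG), the TATA box (TATAAA) and an interferon regulatory factor motif (GAAA repeated after a gap of 2 bases). In the printed windows the Tnf promoter holds a TATA box and a GC box, the Fas promoter an AP-1 match and a GC box, and the Tnfrsf9 and Tnfrsf21 promoters a GC box each. Of the members, 29 had a promoter in the RefSeq table, with 33 windows in all. The GC box was found in 42.4% of these windows and in 32.7% of all 32851 windows, and the TATA box in 18.2% and 12.4%. The NF-kappaB motif was found in 12.1% of member windows, those of Ltb, Tnfrsf8, Tnfrsf25 and the second start of Tnfrsf9, and in 7.25% of all. AP-1 was found in 15.2% and 6.75%, the interferon regulatory factor motif in 12.1% and 2.98%, and RUNX in 6.06% and 14.0%. With 33 windows each of these shares rests on 14 windows or fewer, and a match is a run of letters and not a bound site. The interferon regulatory factor motif was met in Tnfrsf14, Tnfrsf17, Tnfrsf1b and Tnfsf13b.

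Co-stimulatory receptors of lymphocytes were lower off fucose in 5 of 6 genes. These were all 5 that passed the filter, beside 56.5% lower among the 11090 genes past it. With T cell centring all 5 were still lower, beside 25.9%. They kept that sign under every scaling, but differences as wide as theirs could not change sign by median centring or T cell centring. Tnfrsf9, the receptor 4-1BB induced on activated T cells, had 4.95 and 4.35, which is 1.52-fold lower. Tnfrsf4, which encodes OX40 of activated and regulatory T cells, had 6.89 and 6.34, which is 1.47-fold lower with a robust SD of 0.27. Tnfrsf18, which encodes GITR of regulatory T cells, had 7.93 and 7.70, a difference of -0.24 that shrank to -0.01 with T cell centring. A further probe set, outside the comparison because it names both Tnfrsf18 and Gm16008, had 3.17 and 3.25. Its difference of 0.08 went the other way and was within its robust SD of 0.29. Tnfrsf4 and Tnfrsf18 lie side by side, and the difference is wider in Tnfrsf4, though no replicate bounds either. Tnfrsf1b, the TNF receptor of lymphocytes, had 5.97 and 5.61, and Tnfrsf14, which encodes HVEM, had 4.85 and 4.45. The remaining gene, Tnfrsf8 for CD30, lay below the filter at 2.74 and 3.0. Among regulatory T cell markers, Foxp3, the lineage factor, had 6.65 and 6.60, Il2ra 6.69 and 6.40, Ctla4 4.65 and 4.94 and Ikzf2 3.60 and 3.48. These 4 genes summed to a linear intensity of 241 on fucose and 224 off fucose, and their part in the lower receptor values was not tested.

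Receptors of the B cell survival factors had low signal on both arrays. Tnfrsf13c, the BAFF receptor of B cells, had 3.47 and 3.34, and its difference of -0.13 turned to 0.10 with T cell centring. Tnfrsf13b, which encodes TACI, had 2.81 and 2.80, and Tnfrsf17, the BCMA gene of plasma cells, had 2.46 on both. The 7 measured B cell markers summed to a linear intensity of 75.8 and 72.1. Of the 7, 4 were lower off fucose, beside 50.0% of the 22180 genes. Of the 4 past the filter, Ms4a1 and Cd79b were lower at -0.37 and -0.21, and Blk and Pax5 higher at 0.41 and 0.17. The widest difference was that of Cd79a, under the filter, with 3.21 and 2.53. Cr2 at -0.12 and Fcer2a at 0.29 also lay under it. B220, on which cells were depleted, is carried by B cells.

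As deposited, 3 of the 5 receptors of lymphoid organs, bone and tissue repair were higher off fucose and 1 was lower. Of the 3 past the filter 2 were higher and 1 lower, beside 42.2% and 56.5% of the 11090 genes. Ltbr, the lymphotoxin beta receptor, which stromal and myeloid cells carry and lymphocytes lack, had 3.27 and 3.74, a difference of 0.46 with a robust SD of 0.34. Tnfrsf12a, which encodes Fn14, the receptor of TWEAK, had 2.95 and 3.29, a difference of 0.34. Both stayed higher under every scaling, though median centring and T cell centring raise every difference and could not turn them negative. With T cell centring Ltbr was at 0.69. Tnfrsf19, the TROY gene, had 3.0 and 2.97, a difference that median centring and T cell centring turned positive. Tnfrsf11a, which encodes RANK, had 2.75 on both arrays, and Tnfrsf11b, the decoy receptor osteoprotegerin, had 2.59 and 2.65. Neither of the last pair passed the filter.

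The mouse receptors of the Tnfrsf22, Tnfrsf23 and Tnfrsf26 cluster, of which Tnfrsf22 and Tnfrsf23 encode decoy receptors for TRAIL, were all lower off fucose as deposited. Of the 11090 genes past the filter 56.5% were lower too. Tnfrsf26 had 7.91 and 7.54, Tnfrsf22 had 4.80 and 4.59, and Tnfrsf23 had 3.33 and 2.82. The differences were -0.38, -0.21 and -0.51, and with T cell centring they were -0.15, 0.02 and -0.29, so that of Tnfrsf22 changed sign. The off-fucose value of Tnfrsf23 lay under the filter.

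Signal of ligands and receptors was counted over pairs, with a filter that keeps 11090 of all 22180 genes. The share of pairs of any genes with both past it was not computed, so the counts are read as neither few nor many. Of 20 ligand and receptor pairs, counting also Cd70 with Cd27 and Cd40lg with Cd40, both partners passed the filter in 6, the receptor alone in 9, the ligand alone in 1 and neither in 4. The 6 were Tnf with each of its receptors, Ltb with Ltbr, Fasl with Fas, Tnfsf10 with Tnfrsf10b, and Cd40lg with Cd40. The ligand alone was Tnfsf8. Fasl and Fas were both lower off fucose, with -0.41 and -0.73, whereas Ltb and Ltbr differed in opposite directions as deposited, with -0.12 and 0.46, and in the same direction with T cell centring. The receptor alone was past the filter for Tnfrsf4, Tnfrsf9, Tnfrsf18, Tnfrsf25 and Cd27, known from T cell co-stimulation, for Tnfrsf13c of B cells, for Tnfrsf14 and Ltbr paired with Tnfsf14, and for Tnfrsf1a paired with Lta.

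Neighbouring members did not share their differences closely. Ltb, Tnf and Lta follow each other in the RefSeq gene table with no protein-coding gene between them, and their differences were -0.12, -0.92 and -0.23. Tnfsf15 and Tnfsf8, also adjacent, had 0.11 and -0.72. Tnfrsf1b and Tnfrsf8 had -0.36 and 0.26, and Tnfsf9 and Tnfsf14, with 1 gene between them, had -0.45 and 0.50. In each of these last 3 pairs 1 partner or both lay below the filter. Tnfrsf4 and Tnfrsf18 and the cluster of Tnfrsf26, Tnfrsf22 and Tnfrsf23 were lower throughout as deposited.

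Of 9 superfamily genes that carry other names, 5 passed the filter and none was 2-fold apart. Of the 5, 3 were lower off fucose as deposited, beside 56.5% of the 11090 genes, and 2 with T cell centring, beside 25.9%. The median difference of all 9 was -0.18, or 0.04 with T cell centring, beside 0.00 as deposited for all genes measured. Cd27, the co-stimulatory receptor of naive T cells, had 8.65 and 8.19. Cd40lg, the helper T cell ligand of Cd40, had 6.04 and 5.86, and Cd40 of antigen-presenting cells had 3.28 and 2.99. Relt and Ngfr were higher, at 0.23 and 0.33. With T cell centring Cd40lg turned to 0.04, while Cd27 and Cd40 stayed negative at -0.23 and -0.07.

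Signalling genes downstream of the receptors were mostly lower as deposited, but not with T cell centring. Tradd was the only one at least 2-fold lower as deposited, and it was within 2-fold with that centring. In the 4 lists of adaptors, cell death, relay and NF-kappaB genes, 30 of 38 past the filter were lower as deposited, beside 56.5% of the 11090 genes, and 16 with T cell centring, beside 25.9%. With the other superfamily genes, the sheddases and the TNF-inducible genes, the 7 lists held 81 distinct genes, 75 of them measured and 59 past the filter. Of the 59, 39 were lower as deposited and 20 with T cell centring, where their median of -0.11 became 0.11. As deposited, values apart by 2-fold or more numbered 4 higher and 1 lower off fucose, beside 2.37% and 0.514% of the 11090 genes. Tradd, the adaptor that joins death domain receptors to TRAF proteins, had 5.72 and 4.70, a 2.03-fold lower value. Its difference of -1.02 became -0.80 with T cell centring. Among the 10 adaptors past the filter 8 were lower, or 5 with T cell centring, with Traf2 at -0.60, Traf5 at -0.54 and Tank at -0.30. The cell death list had 6 of 8 lower, or 4 with that centring, with Casp8, the initiator caspase of death receptors, at -0.59 and its inhibitor Cflar at -0.42, while Mlkl, the executor of necroptosis, had 0.62. Of the 13 genes of the ubiquitin and kinase relay 11 were lower, or 5 with that centring, with the deubiquitinase gene Cyld at -0.81. The exception of large size was Tnfaip3, which encodes the NF-kappaB inhibitor A20 and had 6.69 and 8.03, which is 2.54-fold higher. Of the 7 NF-kappaB genes 5 were lower as deposited, or 2 with T cell centring. The larger differences were negative, with Relb at -0.61 and the inhibitor gene Nfkbie at -0.83. Nfkbia and Nfkb2 were higher at 0.14 and 0.10, while Rela, Rel and Nfkbib were within 0.02 of 0. The sheddase gene Adam17, which releases TNF from the cell, had 6.95 and 6.77, and Adam10 had 7.64 and 7.66.

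TNF-inducible genes were not lower as a list, unlike Tnf itself. Of the 14 past the filter 10 were higher off fucose, 4 of them at least 2-fold, and the median was 0.16, beside 42.2% higher, 2.37% at least 2-fold higher and a median of -0.05 for the 11090 genes. Ccl3, a chemokine gene of myeloid cells and T cells, had 4.33 and 7.18, which is 7.20-fold higher. Ccl4 had 3.24 and 4.56, and Il1b, the inflammatory cytokine gene of myeloid cells, had 2.82 and 4.11, so that it passed the filter through the off-fucose array. Junb, a subunit gene of AP-1, was higher too, at 0.84. Other genes of the list were lower, with Gadd45b at -0.80 and Ccl5, a chemokine gene of memory T cells, at -0.58.

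**Figure D3:**
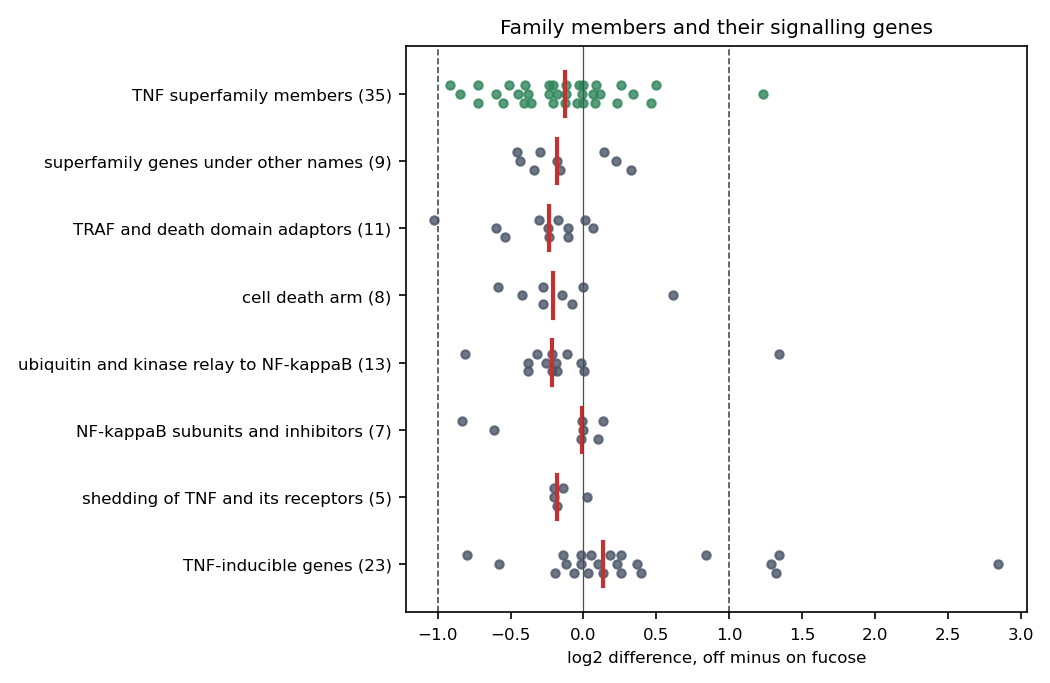
Log2 difference, off minus on fucose (horizontal axis), of each measured gene of the family (green) and of 7 lists of related genes (grey), with the number of genes in brackets; red bars are medians and dashed lines mark 2-fold. The medians lie between -0.23 and 0.14, and with T cell centring each would move up by 0.23, so that the negative ones lie near or above 0.

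Cell type markers also differed between the arrays, in both directions. Their counts stand beside 56.5% lower, 42.2% higher and 2.37% at least 2-fold higher among the 11090 genes past the filter. All 9 measured T cell markers were lower off fucose, with a median of -0.23, and they summed to a linear intensity of 11783 on fucose and 9745 off fucose; such sums weigh bright probe sets most. Of the members, Tnfrsf25, Tnfrsf4, Tnfrsf9 and Fas, known from T cells, had wider differences than that median. Tnfrsf18, at -0.24, was close to it, and Ltb, made by lymphocytes, was narrower at -0.12. Of the superfamily genes under other names, Cd27 was wider at -0.45 and Cd40lg narrower at -0.18. The NK cell list was mixed, and its sum went from 576 to 461. Of all 8 measured genes 5 were lower off fucose, with a median of -0.45 for the 8. Among the 7 past the filter 4 were lower, with Prf1 at -0.65 and Tbx21 at -0.66. The 3 higher ones included Klrk1 at 0.81 and Ncr1 at 0.57. Klrk1 passed the filter through the off-fucose array and Gzma through the on-fucose array. Klrb1c, lower at 2.99 and 2.49, lay below the filter. Most markers of precursors and myeloid cells were higher off fucose. For neutrophils and their precursors all 11 genes were higher, 10 by 2-fold or more, and the sum went from 121 to 3007, with Elane, the neutrophil elastase gene, at 4.11 and 9.48. The monocyte and macrophage list went from 1468 to 2243, and without the bright Ly6c2 probe set that sum went from 79.4 to 347. Of its 8 measured genes 7 were higher, Fn1 at 2.96 and 7.05 and Lyz2 at 3.60 and 6.63 among them. Vcam1, below the filter, was lower at -0.12. All 6 past the filter were higher, though Csf1r, at 2.84 and 4.26, passed it through the off-fucose array. Of 10 cDC1 genes 7 were higher, 4 at least 2-fold, and Ly75, Itgae and Cd8a were lower. The erythroid list, all 7 genes at least 2-fold higher, went from 79.9 to 514 and the basophil and mast cell list from 159 to 1222. No marker of these lists was at 0, since the arrays give none. The higher values of Tnfrsf21 and Ltbr stand beside these myeloid and precursor markers and the lower receptors of T cells beside the T cell markers, and their part in either was not tested. The mature dendritic cell list had a median difference of -0.05, or 0.18 with T cell centring. Of its 6 genes past the filter 4 were lower off fucose, or 2 with that centring, beside 56.5% and 25.9% of the 11090 genes. Fscn1 had 4.66 and 3.15, Ccl22 3.66 and 3.20 and Ccr7 9.30 and 9.12. Higher were Cd86 at 4.78 and 5.08 and Cd80 at 2.91 and 2.96.

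**Figure D4:**
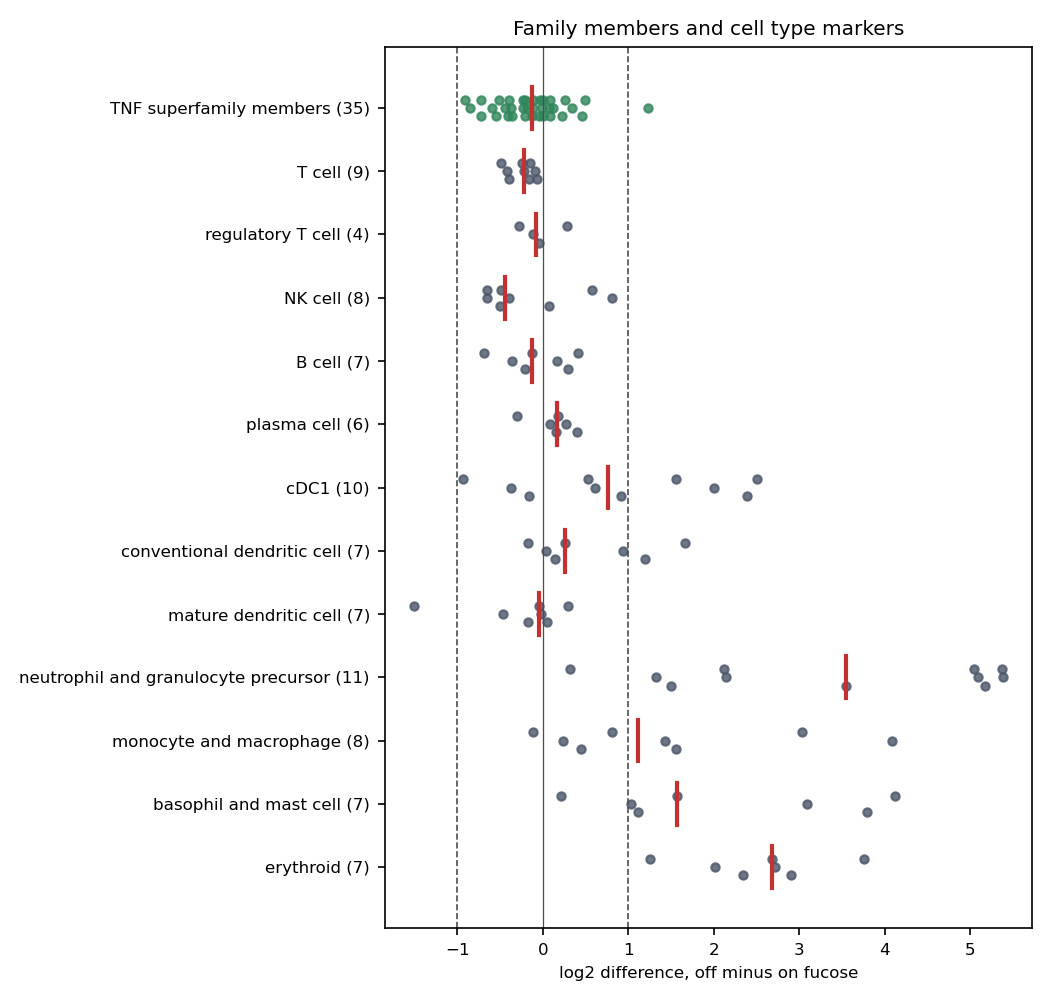
Log2 difference, off minus on fucose (horizontal axis), of the 35 family members (green) and of the measured markers of 12 cell types (grey), with medians in red and dashed lines at 2-fold. The family's median of -0.13, which T cell centring turns to 0.098, lies between those of the T cell list, -0.23, and the regulatory T cell list, -0.08, beside that of the B cell list, -0.12; those of granulocyte precursors and erythroid cells are 3.54 and 2.69.

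Under the 4 other scalings 24 of the 35 members kept 1 sign throughout. Median centring and T cell centring subtract -0.05 and -0.23 from every difference. Under these, no positive difference could change sign, nor a negative one wider than the value subtracted, so sign-keeping there says little. Tnf ran from -0.92 to -0.69, Tnfrsf25 from -0.85 to -0.62, Fas from -0.73 to -0.50, Tnfsf8 from -0.72 to -0.50 and Tnfrsf9 from -0.60 to -0.37.

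**Figure D5:**
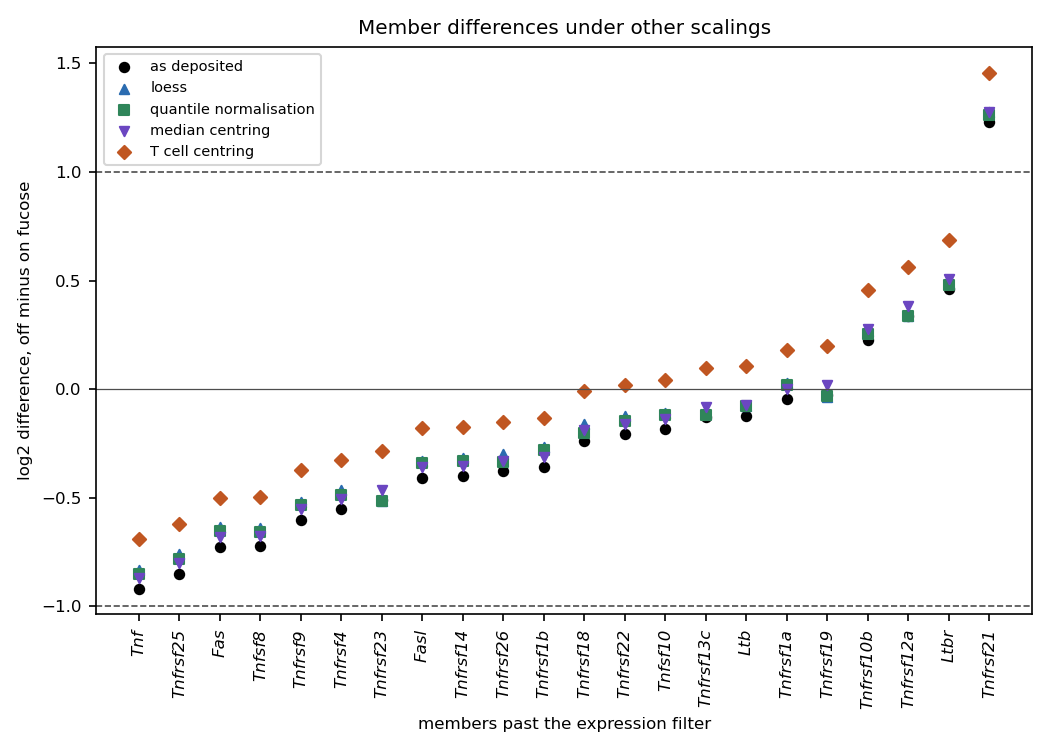
Log2 difference, off minus on fucose (vertical axis), of the 22 members past the filter as deposited and under 4 other scalings, which subtract a loess curve, the median of all genes or the median of the T cell list, or make the arrays' distributions equal. Tnfrsf21 stays above 1 and Tnf lowest under all of them, and the members from Tnfrsf22 to Tnfrsf19 lie on either side of 0 depending on the scaling.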

How the data were processed

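RNA of spleen cells from Fx-/- mice on and off fucose was hybridised to 1 array each, from 9 ng of total RNA labelled with the WT Pico chemistry, per the labels. The authors deposited linear intensities of 41345 probe sets. Per the submitters' processing notes they come from RMA. Which version and settings were used, and which genome build, is not given in the sources used here. The method is meant to make the arrays' distributions alike, so a shift of most genes one way can be hidden. The deposited values were not fully alike. Of genes past the filter 56.5% were lower off fucose as deposited and 51.0% after quantile normalisation. Intensities ran from 2.74 to 9512, with log2 medians of 2.81 and 2.82. Log2 was taken of each deposited intensity with Python 3.11.15, numpy 2.4.6 and pandas 2.3.3.

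Genes were named from the platform annotation, using probe sets with 1 symbol and, for genes with several, the probe set with the highest mean. Differences were compared with those of all genes, and counts were made at 2-fold and 1.5-fold. The scripts recovered known shifts in simulated data, with shifts wider than any member's difference and noise smaller than the members' robust SD. Recovery of differences as small as most of those given here was not simulated. The members, the gene lists and T cell centring were chosen with earlier results of these data known. All members are named. The rule for each other list was up to its 4 genes of largest difference past the filter, not all of which are printed; genes outside it, such as Cd80, Xcr1, Rela, Rel, Nfkbib, Cd40lg, Gadd45b and Ccl5, were chosen after their values were seen. Alternatives were the mean of probe sets, 2 other expression filters, loess (statsmodels 0.14.6, span 0.3), quantile normalisation, 2 centrings and thresholds of 1.5-fold and 3-fold. Promoters came from RefSeq (GRCm38.p6).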

Additional observations from a re-analysis of the deposited data

Results flagged for a closer look

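The probe set shared by Tnfsf12, Tnfsf13 and their readthrough gene Tnfsfm13, which encode TWEAK and APRIL, stands outside the comparison because it names several genes. The on-fucose array gave 2.80 and the off-fucose array 3.26, a difference of 0.47 that exceeds the robust SD of 0.29 among genes of like intensity. The array cannot say which of the 3 genes gives the signal, and no replicate bears on it.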

How the results depend on the processing

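No paired analysis was possible because there was 1 array for each group, which also allows leaving none out. With T cell centring the median difference of all members was 0.098, that of ligands 0.044 and that of receptors 0.14, in place of -0.13, -0.18 and -0.09, and 14 in place of 23 members were lower. The members at least 1.5-fold apart then numbered 3 higher and 2 lower, in place of 1 and 5, and all genes at least 2-fold apart 412 higher and 28 lower, in place of 263 and 57. This centring subtracts 1 value from every difference. At 1.5-fold, 640 genes were higher and 473 lower, with 5 members lower, and at 3-fold 118 and 12, with 0 members higher. With no expression filter all 35 members counted as past it. The mean of probe sets and both filters cannot change a member's difference. Of 140 member values over the 4 scalings, 118 had the deposited sign and 14 the opposite one. The other 8 belong to Tnfrsf11a and Tnfrsf17, whose deposited difference was 0.00. The number of values moved by the robust SD of 0.29 or more was 0. The 2 centrings, which subtract -0.05 and -0.23, could move no value that far. The 1.5-fold counts under other scalings were added after the data were seen. Low signal limits the differences of the 13 members below the filter.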
